A study of Homo sapiens with 6 samples.

Results

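The S100A, SPRR and LCE families and their envelope partners were taken from the gene names of the count and TPM tables: every S100A, SPRR and LCE gene by its symbol, plus *IVL*, *FLG*, *TGM1*, *CNFN* and *CRNN*. This gave 53 genes of 61228 named, comprising 17 S100A, 12 SPRR, 19 LCE and 5 other envelope genes. RNA-seq was available for HBECs, an immortalized bronchial epithelial line of human origin grown in medium with serum and labelled WT. In 3 libraries the cells had received cockroach extract (CRE), and in the other 3 they had received CRE + VAF347, an agonist of the aryl hydrocarbon receptor (AhR) used at 20 μM and added ahead of the allergen. Both groups were collected at 24 h, so every library carries the allergen, and the CRE dose of this experiment is not given in the sources used here. Cells without allergen and cells with VAF347 alone were not analysed here. The comparison asks which transcripts of these families differed when AhR was activated during allergen exposure.

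S100 proteins are small calcium-binding proteins of the EF-hand type that work mostly as dimers. Some stay in the cell and bind annexins or the cytoskeleton, and others, such as S100A8, S100A9, S100A12 and S100A7, are released as alarmins that bind metal ions and act on neighbouring cells. The cornified envelope is the protein shell that squamous keratinocytes build under the plasma membrane: involucrin (*IVL*) is an early scaffold, transglutaminase 1 (*TGM1*) makes the cross-links, small proline-rich (SPRR) and late cornified envelope (LCE) proteins are joined to it, and filaggrin (*FLG*) bundles keratin beneath it. Bronchial epithelium does not normally cornify but can turn on parts of this programme in squamous metaplasia. In skin, AhR ligands are known to promote this barrier programme.

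In GENCODE v44 on GRCh38, 51 of the 53 genes lie on chromosome 1 between 151982915 and 153632039, a stretch of 1.65 Mb known as the epidermal differentiation complex. *TGM1* lies on chromosome 14 from 24249114 to 24264432, and *CNFN* on chromosome 19 from 42387019 to 42390297. *SPRR2C* and *S100A15A* are annotated as pseudogenes. *S100A3* and *S100A4* overlap on the same strand, *S100A1* and *S100A13* overlap on opposite strands, and *FLG* overlaps the antisense gene *FLG-AS1*, so reads could be split between these genes or come from the partner. *S100A7* and *S100A7A*, and the SPRR2 genes among themselves, are near-identical copies whose separate counts are uncertain.

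The promoters of 4 genes are shown because the values turn on them: *S100A9* and *S100A3*, which were lower with VAF347, and *S100A11* and *S100A10*, which carried most of the RNA of these families. Each run holds the 250 bases before the RefSeq start (GRCh38.p14), 5′ to 3′ on the gene's strand. Capitals mark GCGTG, the core of the AhR binding site, or TGANTCA, the AP-1 site, searched on both strands. The patterns can share a TG, but no window shown here held both.
*S100A9*, chr1:153357604-153357853, plus strand: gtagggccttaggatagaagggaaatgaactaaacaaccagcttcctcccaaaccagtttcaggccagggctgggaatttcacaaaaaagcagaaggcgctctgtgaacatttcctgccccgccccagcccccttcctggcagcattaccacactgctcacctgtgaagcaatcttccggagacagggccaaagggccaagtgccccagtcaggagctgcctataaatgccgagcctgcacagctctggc
*S100A3*, chr1:153549259-153549508, minus strand: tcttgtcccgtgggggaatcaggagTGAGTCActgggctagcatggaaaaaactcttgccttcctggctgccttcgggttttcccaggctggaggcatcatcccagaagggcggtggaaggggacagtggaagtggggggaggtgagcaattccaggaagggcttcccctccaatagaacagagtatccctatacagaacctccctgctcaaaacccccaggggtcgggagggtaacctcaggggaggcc
*S100A11*, chr1:152037005-152037254, minus strand: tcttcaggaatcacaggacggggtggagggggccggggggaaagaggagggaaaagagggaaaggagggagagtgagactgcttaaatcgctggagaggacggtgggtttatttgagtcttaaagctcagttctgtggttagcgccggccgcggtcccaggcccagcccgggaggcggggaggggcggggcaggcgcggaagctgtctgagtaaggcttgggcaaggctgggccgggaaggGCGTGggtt
*S100A10*, chr1:151993860-151994109, minus strand: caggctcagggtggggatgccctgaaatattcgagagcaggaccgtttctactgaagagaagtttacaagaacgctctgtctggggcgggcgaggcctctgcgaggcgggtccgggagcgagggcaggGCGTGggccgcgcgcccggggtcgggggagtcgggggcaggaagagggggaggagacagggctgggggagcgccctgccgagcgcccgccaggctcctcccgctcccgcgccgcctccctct
The *S100A9* window held neither pattern. The *S100A3* window, which lies inside the annotated *S100A4* gene, held TGANTCA with its first base at -225. The *S100A11* and *S100A10* windows each held GCGTG once, at -9 and -122. A RefSeq promoter was matched for 47 of the 53 genes. Some had several RefSeq starts, namely *S100A13*, *S100A2* and *S100A16* among the tested genes and *S100A8*, *S100A5* and *LCE4A* among the others. A gene was counted as holding a pattern if any of its windows did, so genes with several starts had more windows to search. GCGTG was present in 11 of these 47 genes (23.4%), against 36.2% of 27305 genes with a promoter. It was in 7 of the 14 tested genes with a promoter and in 4 of the 33 others. TGANTCA was present in 13 of the 47 (27.7%), against 8.06%. Of the 13, *IVL*, *FLG*, *S100A2* and *S100A3* were among the genes expressed well enough to test, and *SPRR1A*, *SPRR1B*, *SPRR3*, *SPRR2A*, *SPRR2F*, *SPRR2G*, *CRNN*, *S100A12* and *S100A5* were not. A match describes the letters of the window and is not evidence of a bound site.

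These HBECs expressed the S100A side of the complex and almost none of the envelope side. Of the 53 genes, 26 were at 0 in all 6 libraries, 9 had at most 3 counts in any library, 3 had more but did not pass the filter on low counts, and 15 were tested. The silent or near-silent genes comprised all 19 LCE and all 12 SPRR genes. For LCE genes, 15 were at 0 throughout, and *LCE1B*, *LCE1C*, *LCE1E* and *LCE5A* had 1 to 10 counts over all 6 libraries together. Of the SPRR genes, 9 were at 0 throughout, including *SPRR1A* and *SPRR1B*, the inducible markers of squamous airway epithelium. *SPRR3* had 4 counts, *SPRR2A* 3 and *SPRR5* 1 over all libraries. The whole SPRR family summed to 6 counts in the CRE group and 2 in the CRE + VAF347 group, and the LCE family to 10 and 5. *CRNN*, which encodes the squamous protein cornulin, and the pseudogene *S100A15A* were also at 0. *S100A5* had 8 counts over all libraries and *S100A7A* 2. A count of 0 allows up to 3 counts in a library, or 0.28 to 0.337 CPM (counts scaled to the size of the library), a limit that covers counting error only. No difference between the groups was detectable for these genes at totals of 8873160 to 10750283 counts.

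**Figure D1:**
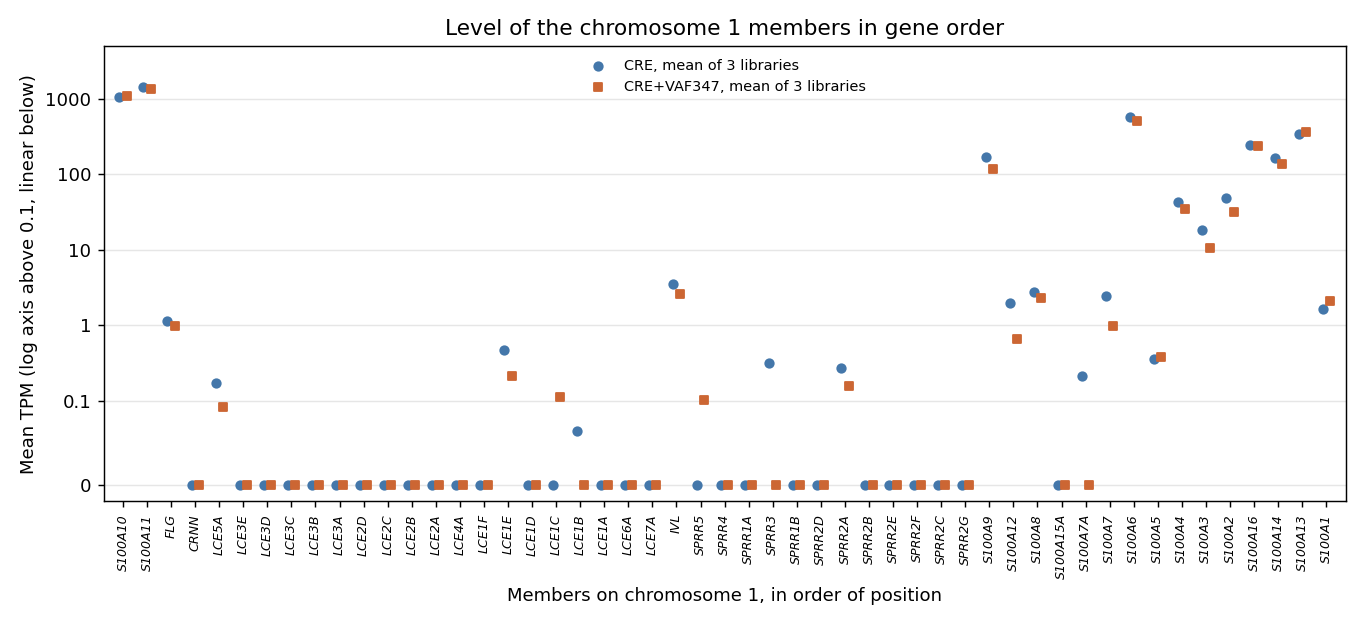
Mean TPM of the 51 chromosome 1 genes, in order of position along the chromosome, for the CRE group (circles) and the CRE + VAF347 group (squares), each the mean of 3 libraries; the axis is logarithmic above 0.1 and linear below. The S100A genes at both ends reach means of up to 1410 TPM in the CRE group, and the LCE and SPRR genes between them sit at or near 0 on either side of *IVL*.

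Between genes, levels are compared in TPM, which is scaled for transcript length. *S100A11*, whose product binds annexin A1, was the most abundant, at 1410.2 ± 285.6 TPM (SD, n = 3) with CRE and 1336.7 ± 48.9 with CRE + VAF347. *S100A10*, the partner of annexin A2 at the plasma membrane, followed at 1044.0 ± 130.2 and 1092.9 ± 30.5 TPM. These 2 genes held 59.4% to 63.4% of the summed TPM of the 53 genes in a library. *S100A6* (calcyclin) stood at 578.8 ± 123.6 TPM with CRE, *S100A13*, which takes part in the export of leaderless proteins, at 339.6 ± 65.0, *S100A16* at 243.9 ± 4.19, *S100A9* at 169.8 ± 33.1 and *S100A14* at 163.3 ± 7.06. Adding *S100A6*, *S100A13*, *S100A16*, *S100A14* and *S100A9* to the first pair brought the share to 96.4% to 97.7%. *S100A14* and *S100A9* overlapped in the CRE libraries, so their order there is not fixed.

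A lower tier held *S100A2*, *S100A4* and *S100A3*, at 47.8 ± 11.7, 43.2 ± 9.18 and 18.5 ± 3.11 TPM with CRE. The ranges of *S100A2* and *S100A4* overlapped. The envelope genes that were expressed stood lower again. *CNFN* (cornifelin) had 9.75 ± 0.78 TPM, *IVL* 3.54 ± 0.60, *TGM1* 3.07 ± 1.43 and *FLG* 1.13 ± 0.06. *S100A1*, best known from muscle, had 1.66 ± 0.97 TPM. In all, 11 of the 17 S100A genes and 4 of the 5 other envelope genes could be tested.

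**Figure D2:**
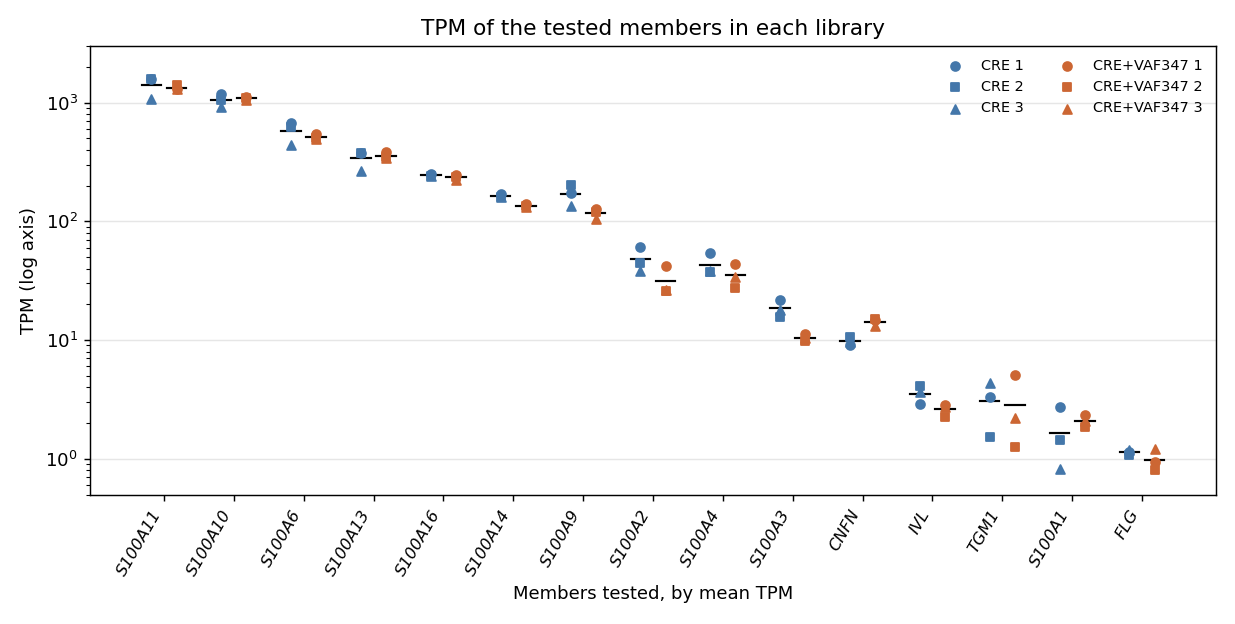
TPM (log axis) of the 15 tested genes in each of the 6 libraries, ordered by mean TPM; symbols give the replicate number and horizontal bars the mean of each group of 3. *S100A3*, *S100A9*, *S100A14* and *IVL* lie lower in all CRE + VAF347 libraries and *CNFN* higher, while CRE 3 lies below the other CRE libraries for *S100A11*, *S100A6*, *S100A13* and *S100A9*.

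Of the 15 tested genes, *S100A9* and *S100A3* were called lower with CRE + VAF347 by edgeR's quasi-likelihood test over 15373 genes, a call needing both an adjusted p under 0.05 and a log2 fold change beyond 0.5 in size. This is 13.3% of the genes tested here, against 1.71% of all genes. No gene was called higher, against 0.501% of all genes. By DESeq2's Wald test only *S100A9* was called, and by limma on TPM none. At an unadjusted p under 0.05, 5 of the 15 were lower and 2 higher, against 11.9% and 8.87% of all genes. In CPM, the CRE + VAF347 libraries all lay below the CRE libraries for 4 genes (*S100A3*, *S100A9*, *IVL* and *TGM1*), against 14.8% of all genes, and all above for 1 (*CNFN*), against 12.5%. The groups overlapped for the other 10. The fitted log2 fold change was below 0 for 11 of the 15 genes, ranged from -0.82 to 0.67 and had a median of -0.20, against 0.01 over all genes tested. In bulk RNA, fewer cells with a transcript and less of it per cell cannot be told apart. Nothing states that the libraries came from separate cultures, so p-values measure the spread between these samples, which may be technical.

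*S100A9* encodes a subunit of calprotectin, the alarmin that binds zinc and manganese. It had 535, 625 and 433 counts in CRE replicates 1, 2 and 3, and 343, 352 and 315 counts with CRE + VAF347. Scaled to depth, this was 55.4, 61.3 and 40.5 CPM against 38.5, 37.0 and 31.4. The groups did not overlap, but CRE replicate 3, at 40.5 CPM, stood close to CRE + VAF347 replicate 1, at 38.5 CPM. The level was 1.47-fold lower with VAF347, at a log2 fold change of -0.56 (SE 0.14, edgeR adjusted p = 0.0395). In TPM the means were 169.8 ± 33.1 and 117.9 ± 11.4 (SD, n = 3).

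The partners of S100A9 among the alarmins were barely present. *S100A8*, the other calprotectin subunit, had 4, 6 and 0 counts with CRE and 2, 3 and 2 with CRE + VAF347. *S100A12*, a ligand of the receptor RAGE, had 1, 6 and 2 counts against 0, 1 and 2. *S100A7* (psoriasin) had 1, 5 and 5 counts against 1, 2 and 1. Its copy *S100A7A* had 0, 1 and 1 counts with CRE and 0 in each library with CRE + VAF347. None of these passed the filter on low counts, so no fold change was fitted. *S100A9* was thus present without a comparable level of its usual dimer partner: in CRE replicate 2, where both were highest, *S100A9* stood at 201.8 TPM and *S100A8* at 4.71 TPM.

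*S100A3*, a cysteine-rich member best known from the hair cuticle, had 76, 53 and 59 counts with CRE and 33, 32 and 34 with CRE + VAF347. This was 7.87, 5.20 and 5.51 CPM against 3.71, 3.36 and 3.39 CPM. The groups did not overlap, and the level was 1.77-fold lower, at a log2 fold change of -0.82 (SE 0.20, edgeR adjusted p = 0.0405). Its overlapping neighbour *S100A4*, linked to cell motility, had 126, 91 and 81 counts against 88, 65 and 75, and the groups overlapped at a log2 fold change of -0.29. With the counts of both genes summed, the log2 fold change was -0.47 (SE 0.18, edgeR adjusted p = 0.168) and was not called.

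Both calls lay close to the threshold. Of 17 other fits, *S100A9* was called in 7, with log2 fold changes from -0.72 to -0.42, and *S100A3* in 6, from -0.93 to -0.62, and neither changed direction. Leaving out 1 library at a time, both were called only without CRE replicate 3 and neither without any of the other 5 libraries. With an offset for transcript GC content the adjusted p was 0.072 for *S100A9* and 0.071 for *S100A3*.

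The abundant S100A genes other than *S100A9* differed between the groups by less than the fold threshold. *S100A11* had 368.2, 351.2 and 242.2 CPM with CRE and 291.1, 311.8 and 287.8 with CRE + VAF347, at a log2 fold change of -0.11 (SE 0.13). *S100A10* had 299.9, 260.5 and 210.3 CPM against 279.4, 274.5 and 262.7, at 0.08 (SE 0.10). *S100A6* had 89.9, 78.6 and 49.4 CPM against 67.4, 64.9 and 61.5, at -0.17 (SE 0.16). In these 3 genes the CRE + VAF347 libraries fell between the highest and the lowest CRE library. *S100A13* followed the same pattern, with 70.4, 66.8 and 43.8 CPM against 68.7, 66.1 and 63.5 (log2 fold change 0.13). *S100A16* was the most even, with 142.3 to 168.6 CPM with CRE and 143.0 to 159.1 with CRE + VAF347 (log2 fold change -0.05). *S100A14* had 100.6, 92.1 and 79.0 CPM against 79.2, 78.1 and 74.8, so the groups met at CRE replicate 3, at a log2 fold change of -0.23 (SE 0.08, edgeR adjusted p = 0.156). In TPM its groups did not overlap, at 171.4, 159.6 and 158.8 against 138.7, 134.7 and 132.6, and limma on log2(TPM + 1) gave -0.27 (SE 0.08, adjusted p = 0.237).

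*S100A2*, a gene of basal epithelial cells, had 17.7, 14.2 and 9.63 CPM with CRE and 13.0, 11.5 and 11.6 with CRE + VAF347 (log2 fold change -0.20, SE 0.19). In TPM the difference was larger, at 47.8 ± 11.7 against 31.5 ± 9.13 with overlapping groups, and limma on log2(TPM + 1) gave -0.60 (SE 0.21, adjusted p = 0.331), past the fold threshold but not called. *S100A1* had 35, 25 and 16 counts against 40, 34 and 39, at a log2 fold change of 0.67 (SE 0.28, edgeR adjusted p = 0.208). This was 0.39 without CRE replicate 3, 1.01 without CRE replicate 1 and 0.28 by limma on log2(TPM + 1). Its groups overlapped in CPM, with CRE replicate 1 at 3.62 and CRE + VAF347 replicate 2 at 3.57. Summed over the family, S100A genes reached 4068.5 ± 645.2 TPM with CRE and 3873.1 ± 113.0 with CRE + VAF347, a difference smaller than the spread of the CRE libraries.

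CRE replicate 3 stood apart from the other CRE libraries for these genes. In CPM it was the lowest CRE library for 10 of the 11 tested S100A genes, the exception being *S100A3*, whereas it was the lowest for 36.1% of all genes tested. In TPM, CRE replicate 2 was the lowest for *S100A3* and also, narrowly, for *S100A4* (37.4 against 38.4) and *S100A16* (240.3 against 242.8). The median log2 difference in CPM of CRE replicate 3 from the mean of CRE replicates 1 and 2 was -0.52 over the 11 S100A genes, against 0.02 over 11060 genes above 8 CPM. Over the 1904 of those with transcripts under 700 bases, the size class of most S100A genes, it was 0.01. CRE replicate 3 was the lowest CRE library for 40.5% of these 1904 genes. The summed S100A level was 3333.9 TPM in CRE replicate 3, against 4543.6 and 4327.9 in the other CRE libraries and 3747.3 to 3966.0 with CRE + VAF347. The second principal component of all genes tested spread the CRE libraries to both sides. CRE replicate 3 stood at -22.9 and CRE replicates 1 and 2 at 19.1 and 13.4, with the CRE + VAF347 libraries between them. Without CRE replicate 3, the log2 fold change was -0.72 for *S100A9* (edgeR adjusted p = 5.85e-05), -0.90 for *S100A3* (0.0200), -0.38 for *S100A6* (0.00226), -0.32 for *S100A14* (0.0034) and -0.28 for *S100A11* (0.00269). The last 3 passed the p threshold but not the fold threshold. *S100A10* then stood at -0.04 and *S100A13* at -0.05, both on the other side of 0. The part of this library in the results was not tested beyond leaving it out.

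**Figure D3:**
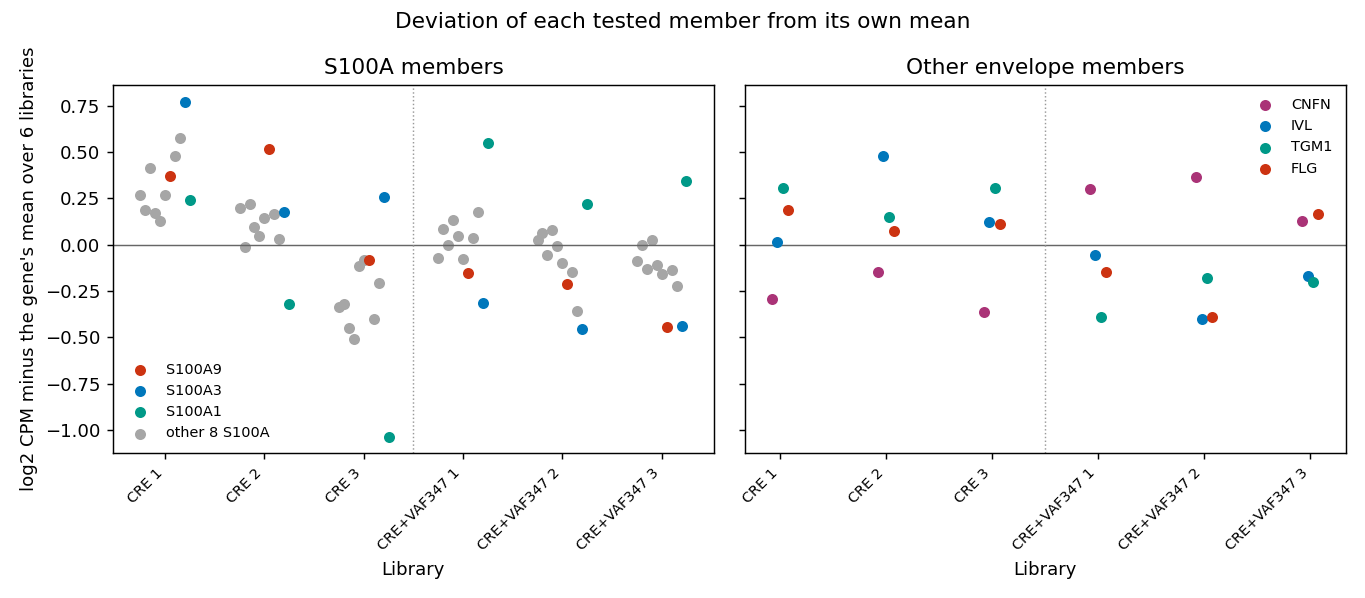
Deviation of log2 CPM from each gene's mean over the 6 libraries, for the 11 tested S100A genes (left) and the 4 tested envelope genes (right); each point is 1 gene in 1 library. In CRE 3 all S100A genes but *S100A3* lie below their mean. *S100A9*, *S100A3*, *S100A14*, *IVL* and *TGM1* are among those below their mean in all CRE + VAF347 libraries, and *CNFN*, *S100A1* and *S100A13* among those above it.

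Among the envelope genes, none was called. *IVL*, the scaffold protein, had 57, 83 and 68 counts with CRE and 50, 42 and 52 with CRE + VAF347, at a log2 fold change of -0.42 (SE 0.18, edgeR adjusted p = 0.201). *TGM1*, the cross-linking enzyme, had 37, 35 and 41 counts against 21, 26 and 27, at -0.51 (SE 0.20, edgeR adjusted p = 0.177). For both genes every CRE + VAF347 library lay below every CRE library in CPM. *CNFN* had 18, 21 and 19 counts against 25, 28 and 25, all above the CRE libraries, at 0.53 (SE 0.23, edgeR adjusted p = 0.218). *FLG* had 130, 127 and 137 counts against 95, 86 and 133, and the groups overlapped at -0.23 (SE 0.14). At an unadjusted p under 0.05, *IVL* and *TGM1* were lower and *CNFN* higher.

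The values of some genes depended on the unit, most of all for *TGM1*. In TPM its groups overlapped, with 3.29, 1.54 and 4.38 against 5.05, 1.26 and 2.20. The ratio of deposited count to TPM, scaled to the total count of the library, varied 4.71-fold between libraries, against 1.07-fold for *S100A9*. This ratio follows the transcript length by which Salmon converted counts to TPM, times a factor shared by all genes of a library. With the length from the count to TPM ratio as an offset, centred on the median over genes, the log2 fold change of *TGM1* was -0.27 (SE 0.50). The scaled ratio also varied for *S100A2* (1.77-fold) and *S100A1* (1.48-fold). The sum over the envelope genes was higher with CRE + VAF347 in TPM, at 17.5 ± 1.29 with CRE and 20.7 ± 2.54 with CRE + VAF347, and lower in CPM, at 25.3 ± 0.70 and 21.4 ± 2.26. *CNFN*, whose transcripts are shorter than those of *FLG* and *IVL*, counted for more of the TPM sum (9.75 to 14.3 TPM, 1.90 to 2.75 CPM), whereas the mean CPM of *FLG*, *IVL* and *TGM1* was lower with VAF347.

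**Figure D4:**
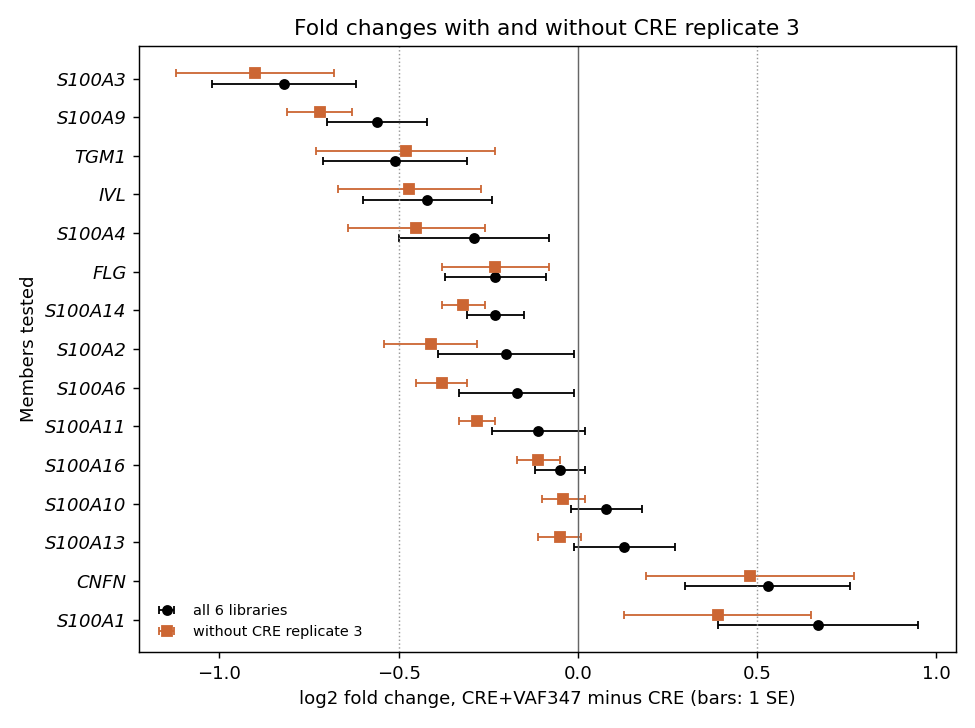
Log2 fold change of the 15 tested genes, CRE + VAF347 minus CRE, from edgeR with all 6 libraries (circles) and without CRE replicate 3 (squares); bars are 1 SE and dotted lines mark the fold threshold of 0.5. *S100A3* at -0.82 and *S100A9* at -0.56 lie past the lower line in both fits, and *S100A10* and *S100A13* cross 0 when CRE replicate 3 is left out.

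The wider envelope programme was present in part. Of 32 other envelope and barrier genes, 13 were at 0 in all libraries, among them *LORICRIN*, the main protein of the epidermal envelope, and 15 had at most 3 counts in any library. The other 17 had more, of which 14 were tested. The plakins *PPL* and *EVPL* had 237.6 and 105.3 CPM with CRE, and the protease *KLK5* 219.1. *KLK5* cleared the p threshold at -0.43 (SE 0.06, edgeR adjusted p = 0.00222) but fell short of the fold threshold. Its CRE libraries stood at 207, 223 and 227 CPM, above all CRE + VAF347 libraries at 164, 166 and 158. Of the 14 tested, *KLK7* and *ABCA12* were called lower and none higher, against 1.71% and 0.501% of all genes. At an unadjusted p under 0.05, 8 were lower and 0 higher, against 11.9% and 8.87% of all genes. The median log2 fold change was -0.31, against 0.01 over all genes tested. DESeq2 called 1 lower and 0 higher. *KLK7*, a protease that sheds corneocytes, had 162, 151 and 176 CPM with CRE and 110, 106 and 96.9 with CRE + VAF347 (log2 fold change -0.64, edgeR adjusted p = 0.000639). *ABCA12*, a lipid transporter, had 7.14, 7.46 and 8.41 CPM against 5.39, 3.26 and 4.89 (-0.77, edgeR adjusted p = 0.0381). *ABCA12* was not called by DESeq2 or with any of the 6 libraries left out, and *KLK7* was called in all of these. In both genes CRE replicate 3 was the highest library.

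Of 23 regulators of squamous differentiation, 20 were tested and 3 were called, all higher: *FOSL1*, an AP-1 subunit, at 0.78 (edgeR adjusted p = 0.000649), *PRDM1*, a repressor in terminal differentiation, at 0.74 (0.0355), and *HES1*, a Notch target, at 0.52 (0.0101). Over all genes tested, 0.501% were called higher and 1.71% lower. At an unadjusted p under 0.05, 6 were lower and 5 higher, against 11.9% and 8.87% of all genes. DESeq2 called 2 higher and 0 lower. *PRDM1* was not called by DESeq2 and, with single libraries left out, only without CRE replicate 3, and *HES1* was called in 3 of these 6 fits and *FOSL1* in all 6. The median over the 20 was -0.02, against 0.01 over all genes tested. *FOSL1* had 193, 229 and 245 counts with CRE and 305, 363 and 401 with CRE + VAF347. Among the other AP-1 subunits of the list, *JUN* was at -0.43 (edgeR adjusted p = 0.00321) and *FOSL2* at -0.29 (0.0324). Both passed the p threshold but not the fold threshold, with every CRE + VAF347 library below every CRE library in CPM. *JUNB* was at 0.05 (0.763), with overlapping groups.

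Of 12 partners and receptors of S100 proteins, 10 were tested. *ANXA1*, the annexin bound by S100A11, had 468, 460 and 481 CPM with CRE and 325, 311 and 271 with CRE + VAF347, at a log2 fold change of -0.64 (edgeR adjusted p = 0.000639). *ANXA6* was lower at -0.61 (edgeR adjusted p = 0.0104) and was called in 3 of the 6 fits that left out a library, against 6 of 6 for *ANXA1*. *ANXA2*, the partner of S100A10, had 1501.6, 1358.9 and 1435.0 CPM against 1281.4, 1259.9 and 1228.2, at -0.19 (edgeR adjusted p = 0.101). Of the 10, 2 were called lower and 0 higher by edgeR and by DESeq2. By edgeR, 1.71% of all genes were called lower and 0.501% higher. At an unadjusted p under 0.05, 3 were lower and 0 higher, against 11.9% and 8.87% of all genes. The median was -0.04, against 0.01 over all genes tested. *AGER*, which encodes RAGE, had 30 to 37 counts with CRE and 35 to 54 with CRE + VAF347, and *TLR4*, a calprotectin receptor, had at most 11 counts in any library. Of 5 S100 genes outside the naming rule, only *S100P* was tested (-0.78, edgeR adjusted p = 0.215), and the others were at 0.

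The treatment label was checked on AhR targets and *AHR* itself. Of 7 genes tested, 6 were called higher with VAF347, among them *CYP1A1* by 6.20 and *CYP1B1* by 3.14 on the log2 scale (edgeR adjusted p = 2.83e-09 for each). The other was *AHR*, the receptor, at 0.08 (edgeR adjusted p = 0.58). All 8 epithelial markers were tested and none was called (by edgeR or DESeq2; 3 lower and 1 higher at an unadjusted p under 0.05), at a summed 3605.8 to 4501.8 TPM with CRE and 3632.9 to 3733.4 with CRE + VAF347. Of 8 airway basal markers, *KRT14* and *TP63* were at or under 3 counts, and 6 were tested with none called (3 lower and 0 higher at an unadjusted p under 0.05). All 7 club and goblet cell markers were at or under 3 counts. Leukocyte markers, which matter for *S100A8* and *S100A9*, summed to 16.5 to 20.4 TPM with CRE and 12.0 to 13.1 with CRE + VAF347. *PTPRC* had at most 2 counts in any library, and *CSF1R* was the called gene of that list, at -0.59 (edgeR adjusted p = 0.0265, called in 2 of the 6 fits that left out a library). Ciliated markers summed to 18.5 to 21.5 and 11.9 to 14.3 TPM, with *CAPS* called at -0.68 (edgeR adjusted p = 0.00811). Of these 6 markers 4 were tested, with 2 lower and 0 higher at an unadjusted p under 0.05. *CAPS* made up most of their sum, at a mean of 12.7 TPM with CRE and 7.93 with CRE + VAF347. Fibroblast markers summed to 19.4 to 20.8 and 14.9 to 19.0 TPM, with 2 tested, 0 called and 0 at an unadjusted p under 0.05. Over all genes tested, 1.71% were called lower and 0.501% higher. At an unadjusted p under 0.05 these shares were 11.9% and 8.87%. The part of the markers in the results was not tested.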

How the data were processed

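HBECs were profiled by poly(A) RNA-seq in 6 libraries, grouped by the labels of the samples, which matched all columns of values (0 unmatched). The authors made the deposited estimated counts with Salmon, whose version is not given in the sources used here, from paired reads of 150 bases. The submitters' processing notes name hg38. The authors' Salmon run also gave the deposited TPM values. A deposited table of the authors' own comparison (mean normalized counts, log2 fold changes, standard errors, statistics and p-values) was not used.

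Estimated counts were rounded, since 14.5% of them were not whole. The quasi-likelihood test of edgeR 4.0.16 (R 4.3.3) was run over all genes kept by filterByExpr, with TMM scaling, no covariates and Benjamini-Hochberg adjustment. A call required an adjusted p under 0.05 together with a log2 fold change beyond 0.5 in either direction, a fold threshold taken from the study. CPM values are TMM-normalized. Gene positions and overlaps were taken from GENCODE v44, which holds all 61228 gene names, and promoters from RefSeq. With 3 libraries a group the smallest exact permutation p is 0.1, and p-values are therefore taken from the fit over all genes. Totals of 8873160 to 10750283 counts limit the low genes. Scripts were tested on simulated data with 200 changed genes.

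Genes named are those called, those whose groups did not overlap, the 10 with the highest TPM, undetected ones, others by role, and called genes of the related lists. The members and lists were chosen with earlier results of these data known. Alternatives were DESeq2 1.42.0 size factors and Wald test, other filters and thresholds, limma 3.58.1 on log2(TPM + 1) and log2(TPM + 0.1), a replicate block and leaving out each library, and, chosen after seeing the data, offsets for GC content, transcript length and effective length, and *S100A3* and *S100A4* summed.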

Additional observations from a re-analysis of the deposited data

How the results depend on the processing

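The 2 called genes became 1 under DESeq2's Wald test (*S100A9*) and 0 under all 3 limma fits on TPM, the GC offset and the effective length offset. With single libraries left out, 0 to 2 genes were called, and 2 were called only without CRE replicate 3. At an unadjusted p with the same fold threshold, 5 were called. DESeq2 size factors, other count filters, any fold change, the transcript length offset and the replicate block kept 2 genes. The replicate numbers did not pair the libraries: deviations of same-numbered libraries correlated at 0.053, 0.033 and 0.015 across genes, and the replicate block gave 319 calls over all genes against 340.

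Over all genes, the 340 calls became 598 without a filter, 84, 84 and 32 under the limma fits (the last without a filter on low values), 833 at any fold change and 749 at an unadjusted p, and 201 to 380 with single libraries left out. For the related lists of envelope partners, regulators and S100 partners, 7 calls became 11, 3, 3, 0 and, at an unadjusted p, 12 in the same settings, and 3 to 7 with single libraries left out. The summed envelope level had a log2 ratio of 0.24 in TPM and -0.24 in CPM. Log2 fold changes changed sign with single libraries left out for *S100A10* (-0.04 to 0.21), *S100A13* (-0.05 to 0.26), *S100A11* (-0.28 to 0.00), *S100A6* (-0.38 to 0.01), *S100A2* (-0.41 to 0.01) and *S100A16* (-0.11 to 0.01), and for *S100A16* with the GC offset (0.01). For the 2 called genes, 21 of 34 alternative fold changes lost the call and 13 kept it. For the 13 genes not called, 214 of 221 kept their direction and stayed uncalled, and 7 changed sign. *S100A1*, at 0.67, ranged from 0.28 to 1.01 and *S100A2*, at -0.20, from -0.61 to 0.01. The calls of *ABCA12* and *PRDM1* held in 6 of 17 alternatives each, those of *HES1* in 11 and *ANXA6* in 10, and those of *KLK7*, *FOSL1* and *ANXA1* in 16. Except where stated, the cause was not tested.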
